A study of Danio rerio with 9 samples.

Results

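The histone variant genes h2ax, h3f3a and H2AZ2 were followed in zebrafish (Danio rerio) RNA through 3 cleavage stages, the 128-cell, 256-cell and 512-cell embryo, in which the first transcription from the embryo's own genome can be sought. The 3 genes were taken by symbol, in any case, from the 8969 gene IDs of a table with 1 column per library. They are h2ax (ENSDARG00000029406), h3f3a (ENSDARG00000020504) and H2AZ2 (ENSDARG00000068820), and each has 1 ID there. All embryos were wild-type of the AB strain. The labelled groups had received 4-thio-UTP, a uridine analogue that is built into new RNA, by injection of 1 nl at 50 mM into the 1-cell embryo. Each stage has 2 libraries of labelled RNA and 1 of unlabelled RNA, 9 in all. The labels give the same injection protocol for the unlabelled embryos, and whether these were mock-injected is not stated. RNA of all groups was biotinylated and purified on streptavidin beads in the same way, so the unlabelled libraries show what the purification carried over without the label.

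Nucleosomes wrap DNA around histones, and variant histones replace the standard ones at particular places. H3.3, the protein encoded by h3f3a, is deposited outside DNA replication and marks transcribed genes. H2A.Z sits in nucleosomes around promoters, in early zebrafish embryos too, and H2A.X is the form whose tail is phosphorylated beside DNA breaks. The cleaving zebrafish embryo starts out on maternal RNA and protein laid down in the egg, so RNA of a gene can be maternal, newly made or both.

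The labelled libraries of a stage are called technical replicates in the labels, so p-values of stage comparisons measure technical spread only. How many embryos were pooled is not stated. In RNA of whole embryos, fewer cells making a transcript and less RNA per cell cannot be told apart. Values are FPKM, which scale fragments to transcript length and sequencing depth. No read counts were used, so the depth is unknown and counting error cannot be stated. Between 4035 and 7416 genes had at least 1 FPKM per library. The median gene had from 1.42 to 3.21 FPKM across labelled libraries and from 0.836 to 2.52 FPKM across unlabelled ones, and in the unlabelled libraries it was lowest at the 512-cell stage. The table holds 9 of the maternal and early embryo markers sought, with labelled means between 1.58 FPKM (ZAR1L) and 275 FPKM (nanog). Of the differentiated-tissue markers it holds actc1a, an alpha-actin, listed at 0 in both labelled 128-cell libraries. In labelled 512-cell replicates 1 and 2 actc1a had 3.35 and 1.09 FPKM.

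The 3 variants had 3 different profiles. RNA of h3f3a was abundant in labelled libraries at every stage and highest at the 512-cell stage. H2AZ2 was abundant too, with labelled levels that overlapped across the stages. h2ax was the lowest of the 3, listed at 0 in labelled RNA of the 128-cell stage and above the median gene in both labelled 512-cell libraries. In the single unlabelled libraries, h3f3a and H2AZ2 were lower at each later stage, and so was the library as a whole, with size factors of 1.46, 0.774 and 0.466 in stage order.

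h3f3a had 49.6 and 20.2 FPKM in labelled replicates 1 and 2 at the 128-cell stage, 122 and 30.2 FPKM at the 256-cell stage, and 355 and 114 FPKM at the 512-cell stage. In unlabelled libraries it had 12.1, 5.34 and 2.55 FPKM at the 128-cell, 256-cell and 512-cell stages. Every labelled value lay above every unlabelled value, and both 512-cell replicates but not both 256-cell replicates lay above the 128-cell pair. The place of h3f3a among all genes, which does not depend on a library's scale, was narrow in labelled RNA: between 96.5% and 98.4% of genes were at or below it. In unlabelled RNA these shares were 88.5%, 84.7% and 79.0% in stage order, and the unlabelled levels divided by the size factors were 8.27, 6.90 and 5.48 FPKM.

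H2AZ2 had 51.6 and 12.0 FPKM in labelled replicates 1 and 2 at the 128-cell stage, 50.4 and 12.7 FPKM at the 256-cell stage, and 42.3 and 10.3 FPKM at the 512-cell stage. In unlabelled libraries it had 8.83, 2.65 and 0.930 FPKM in stage order. All labelled values again lay above all unlabelled values, and the labelled stages overlapped throughout. Between 92.6% and 97.1% of genes were at or below it in labelled libraries. In unlabelled libraries the share was 83.2% at 128-cell, 69.5% at 256-cell and 53.2% at 512-cell. Divided by the size factors, the unlabelled levels were 6.05, 3.425 and 1.99 FPKM. With 1 nuclear total, which brings the summed FPKM of genes outside the mitochondrial genome to 1 value in all libraries, labelled H2AZ2 was lower at each later stage, at 91.2, 55.2 and 42.8 FPKM in replicate 1 and 15.5, 7.57 and 5.07 FPKM in replicate 2. The median gene was lower as well on this scale, at a log2 of -0.80 for labelled 512-cell against 128-cell RNA. Relative to that median H2AZ2 was at -0.45 ± 1.66 (SE) and did not pass.

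h2ax was listed at 0 in both labelled 128-cell libraries, at 1.21 and 0.855 FPKM in labelled 256-cell replicates 1 and 2, and at 8.67 and 2.34 FPKM in the labelled 512-cell replicates. In unlabelled libraries it had 0.307, 0.963 and 0.324 FPKM in stage order. The labelled stages did not overlap, but at the 256-cell stage the unlabelled value lay between the labelled ones on the deposited scale. Divided by the size factors it was 1.24 FPKM, above the 0.709 and 1.06 FPKM of labelled replicates 1 and 2. Both labelled values stood above every unlabelled value at the 512-cell stage alone. The zeros are shared by 221 and 297 genes, 2.46% and 3.31% of all, in the labelled 128-cell replicates. In labelled 512-cell replicates 1 and 2, 77.7% and 65.2% of genes were at or below h2ax. In unlabelled libraries the shares were 9.93%, 39.9% and 26.6%.

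**Figure D1:**
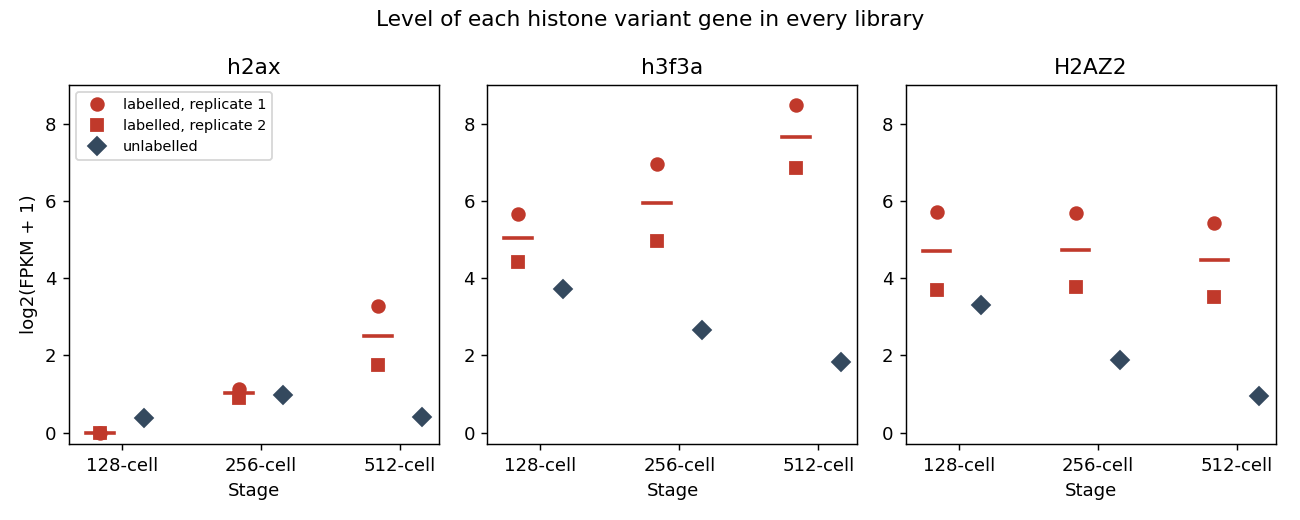
Level of h2ax, h3f3a and H2AZ2 as log2(FPKM + 1) in each library by stage, with labelled replicate 1 (circles), labelled replicate 2 (squares), the mean of both (bars) and the unlabelled library (diamonds). Labelled h3f3a is highest at the 512-cell stage, labelled H2AZ2 overlaps across the stages, and h2ax lies above its unlabelled values in both labelled replicates at the 512-cell stage, while at 128-cell its labelled replicates overlap at 0.

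Replicate 1 lay above replicate 2 for h3f3a and H2AZ2 at every stage. The fold between them was 2.45 at 128-cell, 4.04 at 256-cell and 3.11 at 512-cell for h3f3a, and 4.30, 3.95 and 4.11 for H2AZ2. Median-of-ratios size factors, which measure the shift of a library's typical gene, differed by 1.61-fold, 2.11-fold and 2.12-fold between the same replicates. Factors from the summed nuclear FPKM went the other way. They were 0.566 and 0.772 in replicates 1 and 2 at 128-cell, 0.913 and 1.68 at 256-cell, and 0.988 and 2.03 at 512-cell. The gaps between replicates are the spread against which the stage differences of the 2 abundant variants were tested.

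In order of mean FPKM within labelled RNA, h3f3a came first with 34.9 ± 20.8 FPKM at 128-cell, 76.0 ± 64.9 FPKM at 256-cell and 235 ± 170 FPKM at 512-cell (SD, n = 2 each). H2AZ2 followed with 31.8 ± 28.0, 31.6 ± 26.6 and 26.3 ± 22.6 FPKM, and h2ax was last at every stage. At 128-cell h3f3a and H2AZ2 differed by less than the gap between replicates, and at 512-cell both h3f3a replicates lay above both H2AZ2 replicates. The 512-cell labelled mean of h2ax was 5.50 ± 4.48 FPKM (SD, n = 2).

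The comparison of labelled RNA at the 512-cell with the 128-cell stage asks which RNAs had a higher level in the purified RNA at the later stage. That RNA can include some carried over without the label, and FPKM give no amount made per embryo. h2ax passed by limma on log2(FPKM + 1) (adjusted p = 0.0143, n = 2 technical replicates per stage), where 4.96% of the 7438 tested genes did, all of them higher. Among labelled libraries it reached 1 FPKM only in 256-cell replicate 1 and both 512-cell replicates. It thus met the filter of 2 libraries through the stage where it was high. With no filter limma gave adjusted p = 0.0166, and 413 genes passed. Since h2ax was listed at 0 in both earlier libraries, its log2 difference is set by the pseudocount and is no fold. Relative to the median of all genes it was 2.61 with a pseudocount of 1 and 5.69 with 0.1. The equal zeros also add no spread between replicates to its standard error, so its p-value rests on them too. h2ax did not pass with 1 nuclear total (adjusted p = 0.0983), where 1 of the tested genes did. The differentiated-tissue gene actc1a also passed (adjusted p = 0.0318), with 3.35 and 1.09 FPKM in the labelled 512-cell replicates, 0 in both 128-cell replicates and 0 to 0.0347 FPKM in unlabelled libraries, and its part in the h2ax result was not tested. h3f3a was higher by a log2 of 2.73 ± 1.102 (SE) relative to the median of all genes but did not pass (adjusted p = 0.458). On libraries rescaled by size factors its difference was 2.78 ± 0.46 with adjusted p = 0.0162, while the all-gene median moved from -0.11 to -0.02. H2AZ2 was at -0.13 ± 1.06 (adjusted p = 1), with a 95% interval of the log2 difference from -2.46 to 2.19. In this fit, that leaves room for a change of several-fold in either direction. The fit has no term for the replicate number, so its spread includes the gap between replicates. Its sign turned when labelled 128-cell replicate 1 (0.57) or the second labelled 512-cell replicate (0.42) was left out. Each of those fits leaves 1 stage with a single replicate number, and replicate 1 lay above replicate 2 at every stage. From 128-cell to 512-cell, H2AZ2 went from 51.6 to 42.3 FPKM in replicate 1 and from 12.0 to 10.3 FPKM in replicate 2.

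Between neighbouring stages none of the 3 genes passed, and neither did any other tested gene. For the 256-cell against the 128-cell stage, 0 of 7438 genes passed (0%), with 256 at an unadjusted p under 0.05. h3f3a had a log2 difference of 0.89 ± 1.102 (SE) and H2AZ2 of -0.01 ± 1.06 relative to all genes, both with adjusted p = 1. For the 512-cell against the 256-cell stage, 0 of 7438 genes passed (0%), with 335 at an unadjusted p under 0.05. Here h3f3a had 1.81 ± 1.102 (adjusted p = 1), H2AZ2 -0.17 ± 1.06 (adjusted p = 1) and h2ax 1.59 ± 0.50 (adjusted p = 0.51). With size factors h2ax passed in this comparison, at 1.49 ± 0.26 with adjusted p = 0.0453, where 216 genes passed. Its difference was 1.21 without labelled 512-cell replicate 1 and 1.95 without replicate 2.

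The table of the authors with 1 value per stage holds h3f3a and H2AZ2, and h2ax was not found in it. Its columns name the stage only, so which libraries entered a value is not stated. In the authors' deposited table h3f3a stood at 21.1 FPKM at 128-cell, 75.5 FPKM at 256-cell and 348 FPKM at 512-cell, a 16.5-fold ratio of the 512-cell to the 128-cell value. H2AZ2 in the authors' deposited table stood at 16.8, 29.0 and 42.0 FPKM, a 2.50-fold ratio. The median ratio in the authors' deposited table, over genes with at least 1 FPKM at 128-cell, was 1.98, and both ratios lay above it. So did those of all other histone genes there, from 2.11 (h3f3d) to 28.1 (h3c13a, with 0.384 FPKM at 128-cell). The per-library labelled means of H2AZ2, at 31.8, 31.6 and 26.3 FPKM in stage order, did not rise in this way, and why was not tested.

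Ratios of genes within 1 library do not depend on the library's scale. In labelled RNA the ratio of h3f3a to H2AZ2 FPKM was 0.962 and 1.69 in replicates 1 and 2 of the 128-cell stage, 2.42 and 2.37 for the 256-cell stage, and 8.40 and 11.1 for the 512-cell stage. In unlabelled RNA it was 1.37, 2.02 and 2.75 in stage order. The labelled stages did not overlap, and at 512-cell both labelled ratios lay above all unlabelled ones. This ratio was chosen after its values were seen, and an exact permutation test of 2 against 2 libraries cannot go below p = 0.333, so none was run.

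**Figure D2:**
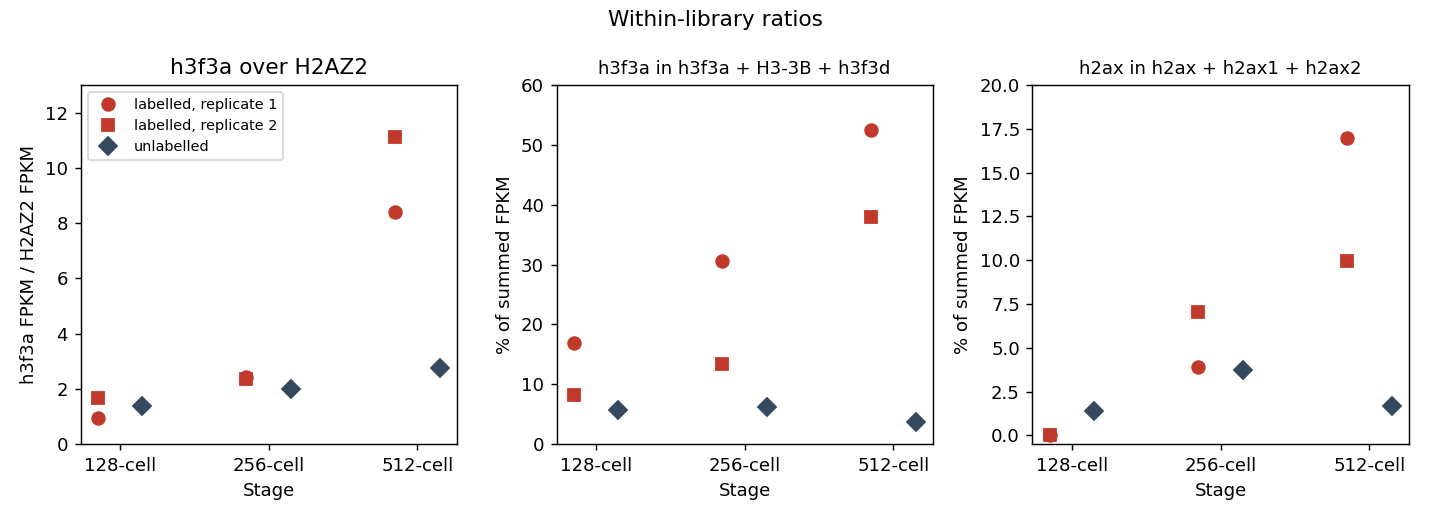
Ratio of h3f3a to H2AZ2 FPKM (left), h3f3a as a percentage of the summed FPKM of the H3.3 genes h3f3a, H3-3B and h3f3d (middle), and h2ax as a percentage of the summed FPKM of h2ax, h2ax1 and h2ax2 (right), by stage and library. All 3 quantities are highest in the labelled 512-cell libraries, where h3f3a makes up 52.5% and 38.0% of its family's sum.

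Labelled against unlabelled RNA asks which RNAs the label brought through the purification. Over the 3 stages, h3f3a was higher in labelled RNA by a log2 of 3.16 ± 0.58 (SE, n = 3 labelled and 3 unlabelled stage values; limma adjusted p = 8.88e-08) and H2AZ2 by 2.27 ± 0.49 (adjusted p = 4.09e-06), relative to the all-gene median of 0.33. Of 7697 tested genes 12.8% passed, and 11.9% of the 7697 were higher in labelled RNA. Tests were made on the deposited scale and take each difference from 0 before the all-gene median is taken off. h2ax did not pass, at 0.26 ± 0.33 (adjusted p = 0.267), a value that rests in part on its zeros. The 3 stage differences of h3f3a were 1.33, 3.29 and 5.83 on the log2(FPKM + 1) scale, with a standard error of their own of 1.31, which is larger than limma's because limma here took the spread almost entirely from all genes. For H2AZ2 they were 1.41, 2.86 and 3.52, with a standard error of 0.623. Both genes were higher in labelled RNA at 3 of 3 stages, and an exact test of 3 pairs cannot go below p = 0.25. With size factors h3f3a was at 3.04 ± 0.64 with adjusted p = 0.0504.

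**Figure D3:**
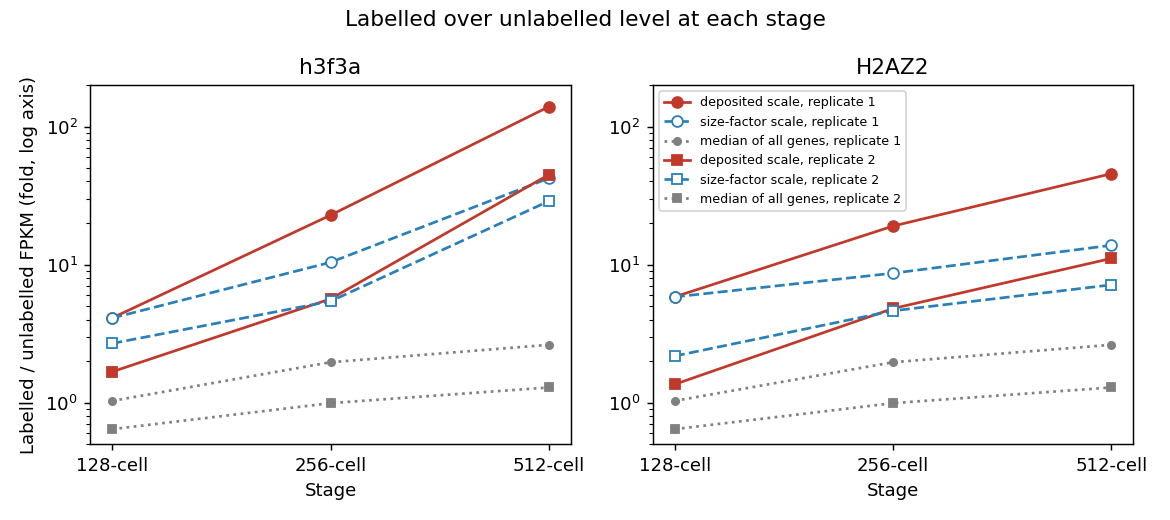
Labelled over unlabelled FPKM (fold, log axis) of h3f3a and H2AZ2 at each stage, for each labelled replicate over the stage's 1 unlabelled library, on the deposited scale (filled), after size factors (open) and as the median of all genes with at least 1 FPKM in both libraries (grey). Both genes lie above the all-gene median at every stage, and the fold of h3f3a at 512-cell is 139 and 44.8 on the deposited scale and 42.2 and 28.8 after size factors.

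At the 128-cell stage h3f3a was 4.11-fold and 1.68-fold higher in labelled replicates 1 and 2 than in the unlabelled library, and H2AZ2 was 5.84-fold and 1.36-fold higher. The median gene stood at 1.03 and 0.643 in the same pairs. Neither variant passed there by limma on group means (adjusted p = 1 for each), where 0.078% of 7697 genes did. At the 256-cell stage the folds were 22.8 and 5.64 for h3f3a and 19.0 and 4.81 for H2AZ2, against 1.96 and 0.992 for the median gene. Again neither passed (adjusted p = 0.875 for h3f3a and 0.95 for H2AZ2, with 1.13% of genes passing). h2ax, at 0 in both labelled libraries and 0.307 FPKM in the unlabelled library at 128-cell, has no fold there and did not pass (adjusted p = 1). At 256-cell its folds were 1.25 and 0.887 in replicates 1 and 2, and it did not pass. Its log2 difference there was 0.04, or -0.38 ± 0.61 (SE) relative to the all-gene median of 0.43.

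At the 512-cell stage h3f3a was 139-fold and 44.8-fold higher in labelled replicates 1 and 2 than in the unlabelled library, against 2.63 and 1.29 for the median gene. Before the all-gene median is taken off its log2 difference was 5.83, which passed by limma (adjusted p = 0.0299), where 3.94% of genes did. Relative to all genes it was 5.11 ± 1.25 (SE). Without labelled 512-cell replicate 1 it was 4.68 (adjusted p = 0.0724), and with 1 nuclear total for all libraries 4.72 (adjusted p = 0.404). H2AZ2 was 45.5-fold and 11.1-fold higher, with 2.79 ± 1.24 (adjusted p = 0.202). h2ax was 26.7-fold and 7.21-fold higher over an unlabelled value of 0.324 FPKM, with 1.37 ± 0.61 (adjusted p = 0.105, and 0.0263 with size factors). These fits lend the single unlabelled library the spread of the labelled technical replicates. After size factors the 512-cell folds in replicates 1 and 2 were 42.2 and 28.8 for h3f3a and 8.10 and 4.64 for h2ax. For H2AZ2 they were 13.8 and 7.13, over an unlabelled value of 0.930 FPKM as deposited.

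Whether the change from the 128-cell to the 512-cell stage differed between labelled and unlabelled RNA was tested directly. The difference of the changes was a log2 of 3.57 ± 1.77 for h3f3a, 1.54 ± 0.86 for h2ax, which the zeros at 128-cell tie to the pseudocount, and 1.17 ± 1.76 for H2AZ2, relative to an all-gene median of 0.94. None passed by limma (adjusted p = 0.564, 0.459 and 0.7), and 0 of 7697 genes did (0%), with 568 at an unadjusted p under 0.05. The h3f3a value has a 95% interval from -0.38 to 7.51. With size factors the all-gene median was -0.02, h3f3a had 3.295 ± 0.76 (adjusted p = 0.122), H2AZ2 1.14 ± 0.99 (adjusted p = 0.764), h2ax did not pass (adjusted p = 0.127), and 134 genes passed.

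The table holds a pair of other genes named as H3.3 genes, with profiles of their own. h3f3d (ENSDARG00000045248) had 241 and 223 FPKM in labelled replicates 1 and 2 at 128-cell, 271 and 191 FPKM at 256-cell and 317 and 185 FPKM at 512-cell, with 190, 74.1 and 60.2 FPKM in unlabelled libraries. Its labelled levels overlapped across stages (0.17 ± 1.04 for 512-cell against 128-cell, limma adjusted p = 1). H3-3B (ENSDARG00000033009) was the rare one, with 1.36 to 4.93 FPKM in labelled libraries and 4.51 to 9.72 FPKM in unlabelled ones, and a labelled minus unlabelled log2 of -1.43 ± 0.42 over the stages (adjusted p = 0.0582). With size factors it was lower at -1.56 ± 0.16 (adjusted p = 0.0359), and with 1 nuclear total at -1.48 ± 0.24 (adjusted p = 0.0151). As a share of the summed FPKM of these 3 genes, h3f3a held 16.9% and 8.24% in labelled replicates 1 and 2 of the 128-cell stage, 30.7% and 13.5% in those of the 256-cell stage and 52.5% and 38.0% in those of the 512-cell stage. In unlabelled libraries it held 5.71%, 6.15% and 3.80%. Both 512-cell labelled shares lay above all other shares. How any reads common to these genes were assigned is not stated, so the split between the genes is uncertain. No set of identical values holds any of the 3 variants.

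Of the H2AX-named genes, h2ax2 (ENSDARG00000086552) was the abundant one. It had 23.9 and 6.83 FPKM in labelled replicates 1 and 2 at 128-cell, 23.8 and 9.27 FPKM at 256-cell and 37.8 and 18.5 FPKM at 512-cell. The unlabelled libraries had 19.4, 23.2 and 18.3 FPKM of it in stage order, within the labelled range on the deposited scale. Divided by the size factors these were 13.3, 30.0 and 39.3 FPKM, against 24.6 and 25.5 FPKM as the highest labelled values. h2ax1 (ENSDARG00000068995) had 1.25 to 5.94 FPKM in labelled and 0.906 to 2.41 FPKM in unlabelled libraries. Neither passed for 512-cell against 128-cell (1.08 ± 0.89 for h2ax2 and 0.62 ± 0.61 for h2ax1, limma adjusted p = 1 for each) or over the stages for labelled against unlabelled RNA. Within the sum of the 3 genes, h2ax held 3.90% and 7.05% in labelled 256-cell replicates 1 and 2 and 17.0% and 9.96% in the labelled 512-cell replicates. It held 1.39%, 3.75% and 1.66% in unlabelled libraries in stage order. The uncertainty of shared reads applies here as well.

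Of 12 histone genes in the table, all tested, 1 was higher in labelled RNA at 512-cell than at 128-cell, h2ax, beside 4.96% of all genes. With size factors 3 were (h2ax, h3c13a and h3f3a), where 547 of all genes passed. With 1 nuclear total 0 were, where 1 of all genes passed. The median of the 12 was 0.96 above the all-gene median, and 11 of them lay above it. h3c13a (ENSDARG00000068941), named as a replication-type H3 gene, had 1.54 and 0.102 FPKM in labelled replicates at 128-cell, 5.40 and 1.24 FPKM at 256-cell and 10.7 and 4.04 FPKM at 512-cell. Its unlabelled values were 0.0975, 0.522 and 0.240 FPKM. It did not pass between those stages (2.31 ± 0.68, adjusted p = 0.126) but was higher in labelled RNA over the stages (1.19 ± 0.33, adjusted p = 0.00015). With size factors its value was also 1.19, with adjusted p = 0.0853. With h3f3a and H2AZ2 it made up the 3 of 12 histone genes that passed there, beside 11.9% over the whole table, and H2AZ2 alone of them also passed with size factors. The median over the 12 was 0.23. The H2A genes hist1h2a3, hist1h2a4 and hist1h2a11 and the H3 gene hist2h3c did not pass in either comparison. Their log2 values lay between 0.58 and 1.32 for 512-cell against 128-cell and between -0.35 and 0.20 for labelled against unlabelled RNA. The comparisons share the labelled libraries.

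**Figure D4:**
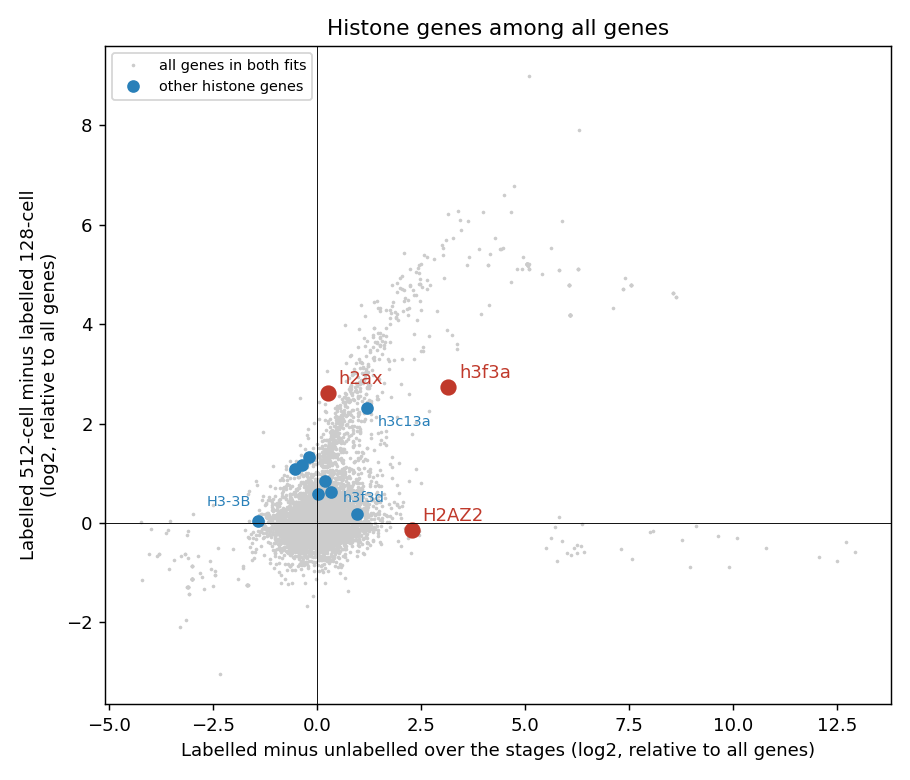
Each gene's labelled 512-cell minus labelled 128-cell log2 difference (vertical) against its labelled minus unlabelled difference over the stages (horizontal), both relative to the all-gene median, with all genes in grey, the other histone genes in blue and the 3 variants in red. The axes share libraries, h3f3a lies high on both (2.73 and 3.16), H2AZ2 on the horizontal axis alone (2.27) and h2ax on the vertical axis alone (2.61, set by the pseudocount of 1 since both 128-cell libraries are at 0).

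Genes that place or remove these variants were tested beside them. Of 8 genes for H3.3 deposition, 0 passed for labelled 512-cell against 128-cell RNA, beside 4.96% of all genes, with a median of -0.18. The histone chaperone gene ASF1B was at -0.39 ± 0.41, ubn1, a partner of the HIRA chaperone, at -0.26 ± 0.54, and DAXX, another H3.3 chaperone gene, at -0.30 ± 0.77. Over the stages 1 of the 8 was higher in labelled RNA, ATRX (0.80 ± 0.41, limma adjusted p = 0.0462), the remodeller that works with DAXX, beside 11.9% of all genes. The value tested for ATRX, before the all-gene median is taken off, was 1.13. Of 5 genes for replication-coupled deposition 0 passed in either comparison, with RBBP4 at 0.37 ± 0.55 for 512-cell against 128-cell. The chaperone gene NASP had a labelled mean of 175 FPKM, against 78.0 FPKM in unlabelled libraries.

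Of 15 genes for H2A.Z exchange 0 passed for labelled 512-cell against 128-cell RNA, beside the same 4.96%, with a median of 0.15 that turned to -0.08 with 1 nuclear total. YEATS4, a reader subunit of the exchange complexes, was at 0.68 ± 0.52 and EPC2 at -0.54 ± 0.72. Over the stages 3 of the 15 were higher in labelled RNA: MRGBP (1.50 ± 0.38, adjusted p = 4.45e-05), the ATPase gene RUVBL2 (0.91 ± 0.37, adjusted p = 0.0103) and YEATS4 (0.62 ± 0.34, adjusted p = 0.0411), all by limma. The values tested, before the all-gene median is taken off, were 1.83, 1.24 and 0.95 in the same order. With size factors YEATS4 had 0.69 and did not pass (adjusted p = 0.0782). That is 3 of 15 beside 11.9% of all genes. ANP32E, which encodes a chaperone that takes H2A.Z off chromatin, averaged 36.5 FPKM in labelled and 17.9 FPKM in unlabelled libraries.

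Of 14 genes for signalling at H2AX, 12 were tested between labelled stages and 0 passed, again beside 4.96% of all genes. Their median was -0.07, and with 1 nuclear total, where all 14 were tested, the median was 0.02. TOPBP1 was at -0.27 ± 0.44, atrip, which encodes the partner of the kinase ATR, at -0.32 ± 0.57 and the checkpoint kinase gene chek2 at -0.19 ± 0.40. Over the stages 1 of 13 tested was higher in labelled RNA, mdc1 (1.16 ± 0.42, limma adjusted p = 0.00518), whose product binds phosphorylated H2AX, beside 11.9% of all genes. With 1 nuclear total, where 1543 genes passed in either direction, RAD50, of a DNA-break sensing complex, passed as well. Of 7 genes for histone mRNA processing 0 passed in either comparison as deposited, and for labelled against unlabelled RNA 1 was lower (npat) with size factors and 1 higher (CPSF3) with 1 nuclear total. slbp2, whose product binds histone mRNA in the oocyte, was at -0.82 ± 0.71 for 512-cell against 128-cell, LSM11 at -0.41 ± 0.45 and npat at -0.45 ± 0.68.

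The genes with the profiles most like each variant were sought by the root mean square difference of centred log2(FPKM + 1) over the 9 libraries, among 5727 genes with an ordinary symbol. For h3f3a they were hnrnpa0b (0.44), srsf5a (0.47) and PNRC2 (0.57). hnrnpa0b, an RNA-binding protein gene, had 315 and 86.0 FPKM in labelled 512-cell replicates and 22.3 and 10.3 FPKM at 128-cell, with 3.58 FPKM in the unlabelled 512-cell library. For H2AZ2 they were sumo3b (0.21), btg3 (0.24) and SOD1 (0.29). sumo3b had 81.5 and 14.4 FPKM in labelled 512-cell replicates and 77.4 and 22.0 FPKM at 128-cell, with 2.37 FPKM in the unlabelled 512-cell library. For h2ax they were otx2a (0.27), znfl1c (0.29) and tagapa (0.31). The homeobox gene otx2a was listed at 0 in both labelled 128-cell libraries and had 6.47 and 1.79 FPKM in the labelled 512-cell replicates. Unlike h2ax, which had 0.963 FPKM there, otx2a had 0.0774 FPKM in the unlabelled 256-cell library.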

How the data were processed

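The authors' deposited values are FPKM, in a gene table per library and a gene table with 1 value per stage, per the file headers. CASAVA 1.7, TopHat 1.3.3 and Cufflinks 2.0.2 on build Zv9 are named in the submitters' processing notes. The annotation version, filters, strand handling, scaling between libraries and the assignment of reads with several matches are not given in the sources used here. Groups and replicates came from the sample titles. Symbols were matched to 7028 of 8969 IDs. A transcript table was not used here.

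A gene entered a fit if 2 or more of its libraries reached 1 FPKM, and was tested as log2(FPKM + 1), with limma 3.58.1 in R 4.3.3 (variances moderated with a mean-variance trend, two-sided, Benjamini-Hochberg adjustment over all tested genes, threshold 0.05). All 3 variants passed the filter in both fits, with 6 and with 9 libraries. Stage comparisons used the 6 labelled libraries. Labelled against unlabelled RNA over the stages used 1 labelled value per stage, the mean of its technical replicates, and 1 unlabelled value, with a block for stage. Comparisons within a stage, and the difference of changes, used group means of all 9 libraries. Calls test the deposited scale, and log2 differences are given relative to the all-gene median unless a stage difference of single genes is named. The fit was tested on simulated data with independent noise and with changes only in genes of high level. That test covers neither replicate offsets shared across stages nor a gene as low as h2ax.

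The named genes are the 3 variants, all genes of the histone list, up to 3 genes with the smallest p in each further list and the 3 nearest profiles per variant. NASP, ANP32E and genes named because they were the few that passed were added after their values were seen. The members and lists were chosen with earlier results of these data known. The alternatives were another pseudocount, no filter, 2 other scalings, a replicate block (in 2 forms, the second added after the data were seen) and leaving out each labelled library.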

Additional observations from a re-analysis of the deposited data

How the results depend on the processing

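Values are log2 differences relative to the all-gene median, on log2(value + pseudocount). The p-values are from limma and test each difference from 0 before that median is taken off. For 512-cell against 128-cell, h2ax, whose value over 0 is set by the pseudocount, had 3.001 (adjusted p = 0.0983) with 1 nuclear total and 5.69 (adjusted p = 0.0021) with a pseudocount of 0.1, and h3f3a 2.78 (adjusted p = 0.0162) with size factors. For 512-cell against 256-cell, h2ax had 1.49 (adjusted p = 0.0453) with size factors. Labelled against unlabelled over the stages, h3f3a had 3.04 (adjusted p = 0.0504) with size factors and h2ax -0.00997 (adjusted p = 0.762) with a pseudocount of 0.1, which turned its sign. At 512-cell, h2ax had 1.59 (adjusted p = 0.0263) with size factors and h3f3a 4.72 (adjusted p = 0.404) with 1 nuclear total. The cause was not tested in any of these.

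Leaving out each labelled library in turn, H2AZ2 ranged from -0.90 to 0.57 for 512-cell against 128-cell, from -0.76 to 0.72 for 256-cell against 128-cell and from -0.75 to 0.40 for 512-cell against 256-cell, and passed in none. h3f3a ranged from 0.30 to 1.46 for 256-cell against 128-cell and from 1.20 to 2.38 for 512-cell against 256-cell, and passed in none. h2ax ranged from 2.23 to 2.97 for 512-cell against 128-cell. Before the median is taken off it stayed at 2.51 unless a 512-cell library was left out, since both 128-cell libraries are at 0. For 512-cell against 256-cell h2ax ranged from 1.21 to 1.95. Labelled against unlabelled at 128-cell, with the labelled level at 0, it ranged from -0.42 to 0.0451. At 512-cell h2ax ranged from 0.99 to 1.76, and in the difference of changes from 1.16 to 1.92. At 512-cell h3f3a ranged from 4.68 to 5.54 and H2AZ2 from 2.21 to 3.39. With all libraries in the fit, h3f3a passed at 512-cell, and h2ax and H2AZ2 did not. None of the 3 genes kept its side of the threshold there in every fit without a library.

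The labels do not say what a replicate number shares. Across 7438 genes the deviations of same-numbered labelled libraries correlated at 0.739 (128-cell with 256-cell), 0.66 (128-cell with 512-cell) and 0.762 (256-cell with 512-cell). With the replicate block, h3f3a had 2.73 (adjusted p = 7.57e-05) for 512-cell against 128-cell and 1.81 (adjusted p = 0.00573) for 512-cell against 256-cell, where h2ax had 1.59 (adjusted p = 0.0354). H2AZ2 had -0.13 ± 0.22 (SE; limma adjusted p = 0.567) for 512-cell against 128-cell with this block. The unlabelled titles carry no replicate number, and the planned block took these libraries as number 1, which is an assumption. Labelled against unlabelled with this replicate block, h3f3a had 1.99 (adjusted p = 0.00364) at 128-cell and 3.34 (adjusted p = 1.75e-05) at 256-cell, H2AZ2 had 2.25 (adjusted p = 0.000729), 3.09 (adjusted p = 9.81e-06) and 3.42 (adjusted p = 2.12e-06) at 128-cell, 256-cell and 512-cell, and h2ax had 1.32 (adjusted p = 0.00124) at 512-cell. Of all 7697 tested genes, 1020, 3613 and 5208 passed with this block at 128-cell, 256-cell and 512-cell. With the unlabelled libraries outside the replicate block, an alternative chosen after seeing the data, h3f3a had 1.51 (adjusted p = 0.0337) at 128-cell and 2.86 (adjusted p = 6.72e-05) at 256-cell, H2AZ2 had 1.59 (adjusted p = 0.0147), 2.44 (adjusted p = 5.22e-05) and 2.79 (adjusted p = 6.66e-06) at the 3 stages, and h2ax had 1.37 (adjusted p = 0.00304) at 512-cell. There 1381 genes passed over the stages, and 558, 1664 and 3824 at 128-cell, 256-cell and 512-cell. The differences of changes with either block were 3.57 (adjusted p = 0.000248) for h3f3a, 1.54 (adjusted p = 0.015) for h2ax and 1.17 (adjusted p = 0.00454) for H2AZ2. These p-values test each difference from 0 before the all-gene median of 0.94 is taken off. With the planned block 2922 of 7697 genes passed.

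Counts of passing genes moved more. For 512-cell against 128-cell, 369 became 1 with 1 nuclear total, 825 with the block and 210 to 519 without a library. For 256-cell against 128-cell, 0 became 82 with a pseudocount of 0.1, 78 with size factors, 242 with the block and 2 to 85 without a library. For 512-cell against 256-cell, 0 became 216 with size factors, 382 with the block and 0 to 135 without a library. Labelled against unlabelled over the stages, 988 became 1543 with 1 nuclear total, 3178 with the block and 399 to 1003 without a library. At 128-cell, 6 became 3 with no filter, 28 with 1 nuclear total, 1020 with the block and 11 to 28 without a library. At 256-cell, 87 became 157 with a pseudocount of 0.1, 3613 with the block and 113 to 251 without a library. At 512-cell, 303 became 492 with a pseudocount of 0.1, 972 with size factors, 156 with 1 nuclear total, 5208 with the block and 246 to 665 without a library. For the difference of changes, 0 became 6 with a pseudocount of 0.1, 134 with size factors, 2922 with the block and 0 to 226 without a library. Of 279 alternative values of the 3 variants, 232 kept their direction and side of the threshold.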
